A study of Mus musculus with 14 samples.

Results

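Pck1, Fbp1, G6pc, Khk, Hk1, Hk2, Pfkp, Pkm, and Ldha encode enzymes of gluconeogenesis, fructose breakdown, and glycolysis. These 9 genes were picked by gene symbol from the 21878 genes measured in mouse kidney. All 9 passed the filter on low levels, as did 14912 genes in all, which were then tested.

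Gluconeogenesis builds glucose from lactate, glutamine, and glycerol. In the kidney it takes place in the proximal tubule, which expresses PCK1, FBP1, and G6PC and also breaks down fructose through KHK. Proximal tubule cells live mainly on fatty acids, whereas the thick limb, the distal nephron, and the medulla rely more on glycolysis, which hexokinase, phosphofructokinase, pyruvate kinase, and lactate dehydrogenase carry out.

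Kidney RNA was sequenced from 14 male C57BL/6J mice that were matched for age, of which 8 were diabetic (4 WT and 4 Cfb-/-) and 6 were controls (3 WT and 3 Cfb-/-). Cfb encodes complement factor B, the serine protease of the alternative complement pathway, and it was deleted in the whole animal. The labels call this genotype a knockdown, while the sample titles call it a knockout. Diabetic mice ate a high-fat diet (HFD) with 60% of calories from fat and were given streptozotocin (STZ), a toxin of insulin-producing cells, at 60 mg/kg on 5 days. Control mice ate chow with 10% of calories from fat and were given the citrate buffer alone. Diet and STZ were always given together and cannot be told apart. The tissue is labelled only as kidney, without a region. The study used mice that were 8 weeks old at the start and gave the HFD for 4 weeks before STZ. The labels give 34 weeks for every mouse without saying from when. They attach the diabetic treatment text to control mice as well, so titles set the groups.

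Levels are in FPKM, which adjusts the fragments of a gene for transcript length and sequencing depth, so that genes can be compared with each other. Cfb itself, the check of the genotype, stood at 62.2 to 131 FPKM in WT control mice and 56.7 to 81.9 in WT diabetic mice. Cfb-/- mice had 2.05 to 2.22 FPKM without and 1.13 to 1.43 FPKM with diabetes. FPKM summed to between 330246 and 488196 per mouse. The number of reads is unknown, but the spacing of low values put the depth of 13 mice at 0.841 to 0.973 of that of the deepest. Kap, a single androgen-regulated proximal tubule transcript, took 10.2% to 13.9% of the sum in control mice and 1.98% to 4.60% in diabetic mice. Mice of the same group correlated at 0.981 to 0.990, and no pair had identical values.

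The genes and the bases just before their start sites were located in the RefSeq annotation of GRCm38.p6, in which all 9 were found. Pck1 lies at chr2:173153073-173159274 on the plus strand, Fbp1 at chr13:62864753-62888298 on the minus strand, and G6pc at chr11:101367716-101377903 on the plus strand. Khk lies at chr5:30921436-30931248 on the plus strand. Hk1 lies at chr10:62268855-62379920, Hk2 at chr6:82725025-82774454, and Pfkp at chr13:6579874-6649060, all on the minus strand. Pkm at chr9:59656576-59679372 and Ldha at chr7:46842274-46855627 are on the plus strand. Fbp1, Hk1, Pkm, Ldha, and Pfkp overlap other annotated genes, among them Hk1os and Pitrm1, and Ldha has pseudogene copies. Whether the counting used strand is not given in the sources used here, so the levels of these 5 genes may include fragments of their neighbours. Gene-level values also cannot separate splice forms, such as those of Pkm and Khk.

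The 250 bases before the start sites of 4 of the genes are shown. Pck1 and G6pc act near the start and at the end of gluconeogenesis. With diabetes G6pc passed the test in both genotypes and Pck1 in neither, a difference between genes that was not tested. Hk2 and Pkm are among the glycolytic genes that rose, but their motifs are not those of every such gene. The windows are chr2:173152823-173153072 for Pck1 and chr11:101367466-101367715 for G6pc on the plus strand, chr6:82774455-82774704 for Hk2 on the minus strand, and chr9:59656326-59656575 for the first annotated start of Pkm on the plus strand. Capitals mark GTTAAT (the core of sites of the tubular factor HNF1), TATAAA (the TATA box), GGGCGG (the GC box), and ACGTG (the core of a hypoxia response element), on either strand.
Pck1: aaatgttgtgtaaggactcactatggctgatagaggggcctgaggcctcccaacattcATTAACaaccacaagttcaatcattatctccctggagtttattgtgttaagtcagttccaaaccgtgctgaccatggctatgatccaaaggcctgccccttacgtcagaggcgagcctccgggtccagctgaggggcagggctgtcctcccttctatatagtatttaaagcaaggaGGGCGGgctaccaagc
G6pc: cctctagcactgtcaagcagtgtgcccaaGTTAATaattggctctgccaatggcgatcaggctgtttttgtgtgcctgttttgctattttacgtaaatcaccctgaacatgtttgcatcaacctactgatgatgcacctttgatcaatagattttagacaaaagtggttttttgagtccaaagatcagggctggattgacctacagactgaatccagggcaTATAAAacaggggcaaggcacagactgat
Hk2: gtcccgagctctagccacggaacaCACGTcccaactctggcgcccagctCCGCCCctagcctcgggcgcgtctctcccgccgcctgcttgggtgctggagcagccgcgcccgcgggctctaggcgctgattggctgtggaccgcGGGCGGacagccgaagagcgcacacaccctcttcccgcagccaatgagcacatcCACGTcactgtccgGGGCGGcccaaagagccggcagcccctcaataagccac
Pkm: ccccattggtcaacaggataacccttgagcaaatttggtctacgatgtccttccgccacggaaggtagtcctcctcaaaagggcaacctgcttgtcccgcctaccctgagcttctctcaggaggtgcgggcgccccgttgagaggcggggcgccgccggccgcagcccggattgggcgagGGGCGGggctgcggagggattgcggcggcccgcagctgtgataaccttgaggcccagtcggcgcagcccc
GTTAAT stood 221 bases before the G6pc start and, on the other strand, 192 bases before that of Pck1, and 6.43% of all 32851 windows of this length hold it. G6pc has TATAAA 29 bases before the start, a motif of 12.4% of the windows. The Hk2 window holds GGGCGG at 3 positions and ACGTG at 2, against 32.7% and 16.6% of all windows with at least 1 match. The Pkm window holds GGGCGG at 1 position, 70 bases before the start. Pkm has a second annotated start, whose window at chr9:59656977-59657226 holds no GGGCGG and has ACGTG 75 bases before that start, on the other strand. The motifs of the genes not shown did not divide by direction. Neither window of Hk1, which rose, holds any of the motifs, and that of Pfkp, which rose, holds GGGCGG at 4 positions and no ACGTG. A window of Ldha, which did not pass, holds 5 matches of ACGTG. Those at 145 and 144 and at 48 and 47 bases before the start overlap on opposite strands, and that at 34 stands alone. The Khk window holds GTTAAT at 1 position and ACGTG at 71 and 70 bases before the start, although Khk fell. The latter 2 matches are the same CACGTG read on both strands. These are matches of letters and no evidence of binding.

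Compared with control mice, diabetic mice had less RNA of the last gluconeogenic enzyme, G6pc, and of the first fructose enzyme, Khk, and more RNA of the glycolytic genes Hk1, Hk2, Pfkp, and Pkm, in both genotypes. Pck1, Fbp1, and Ldha did not pass the test in either genotype. Of the 9 enzymes, 6 were called in WT mice (limma, adjusted p under 0.05), 4 higher and 2 lower, against 46.1% of all genes tested, of which 36.2% were higher and 9.97% were lower. The number called in Cfb-/- mice was also 6, 4 higher and 2 lower, against 33.8% of all genes, of which 27.4% were higher and 6.4% were lower. Most genes were higher in diabetic mice, and the median log2 difference of all tested genes was 0.29 in WT mice and 0.22 in Cfb-/- mice. Of all calls, 78.4% were higher in WT mice and 81% in Cfb-/- mice. This share fell to 50.3% and 56.8% with median-ratio scaling, which put the median difference at 0.03 and -0.01, and to 44.2% and 49.1% with quantile normalization. It rose to 89.3% and 85.2% when mice were scaled to equal sums with Kap left out. The 6 enzymes kept their direction and their call in both genotypes under all 3 scalings.

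**Figure D1:**
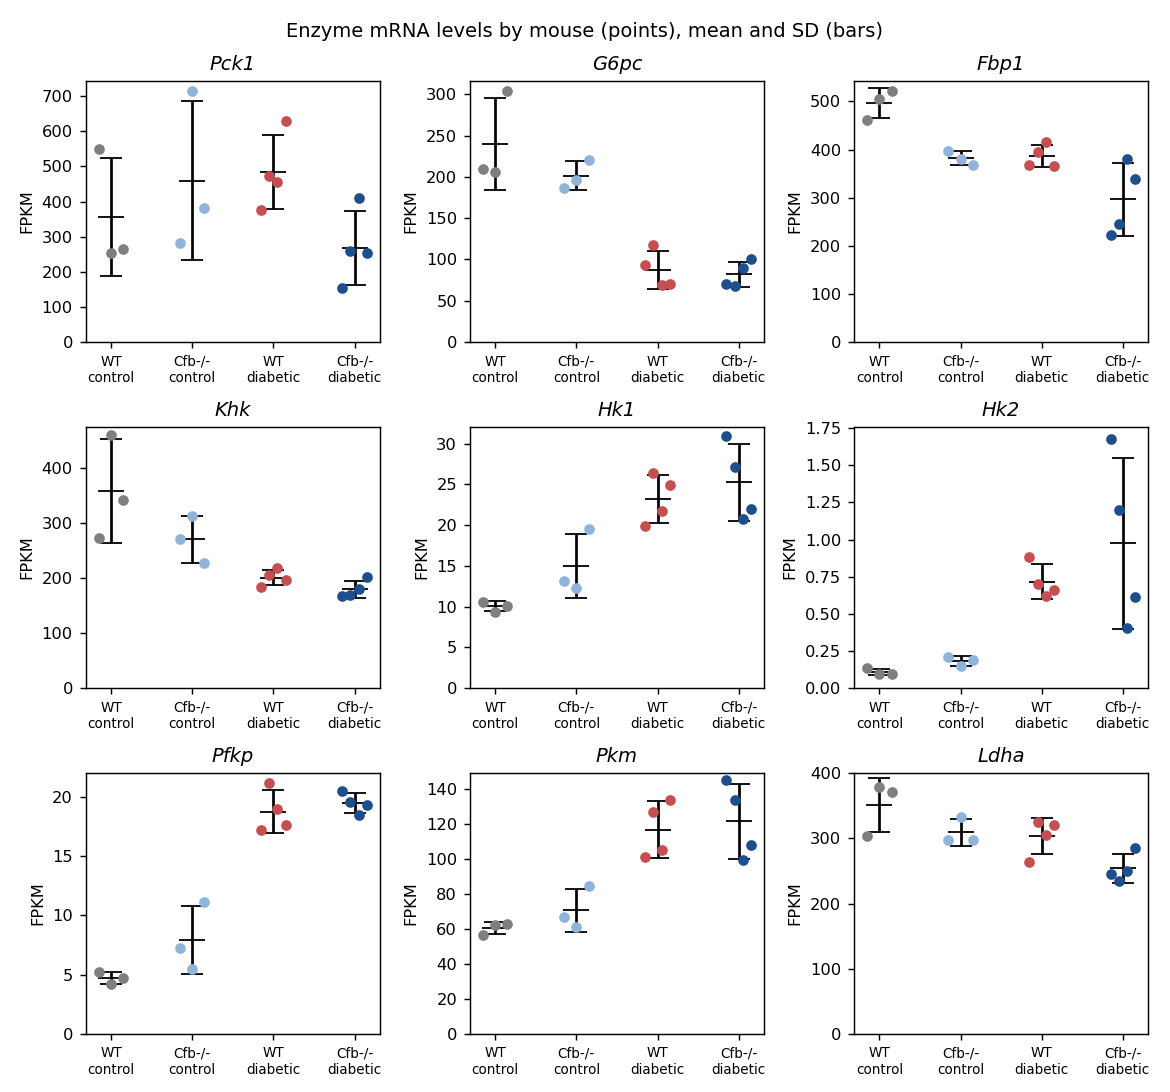
FPKM (y axis, from 0) of each enzyme in each mouse (points), with the group mean and SD (bars), for 3 WT control, 3 Cfb-/- control, 4 WT diabetic, and 4 Cfb-/- diabetic mice. G6pc and Khk are lower and Hk1, Hk2, Pfkp, and Pkm higher in every diabetic mouse than in every control mouse of the same genotype, whereas Pck1 spreads from 255 to 549 FPKM within WT control mice alone.

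G6pc encodes glucose-6-phosphatase, which releases free glucose at the end of gluconeogenesis. It stood at 210, 206, and 304 FPKM in WT control mice and at 92.8, 118, 69.2, and 70.8 FPKM in WT diabetic mice. Levels in Cfb-/- mice were 187, 196, and 221 FPKM in the controls and 70.6, 68.1, 89.6, and 100 FPKM in diabetic mice. All 8 diabetic mice lay below all 6 control mice. The log2 difference was -1.46 (SE 0.20, limma adjusted p = 7.29e-05) in WT mice and -1.31 (SE 0.20, limma adjusted p = 0.000184) in Cfb-/- mice, or -1.75 and -1.53 relative to the median gene.

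Fbp1, which encodes the fructose-1,6-bisphosphatase of the proximal tubule, stood at 461, 506, and 521 FPKM in WT control mice and at 369, 395, 415, and 366 FPKM in WT diabetic mice. The Cfb-/- controls stood at 397, 380, and 368 FPKM and the Cfb-/- diabetic mice at 222, 245, 381, and 340 FPKM. The WT groups did not overlap and the Cfb-/- groups did. Its log2 difference of -0.36 (SE 0.16, 95% interval -0.70 to -0.02) in WT mice had a limma adjusted p of 0.0751. The difference was -0.40 in Cfb-/- mice (SE 0.16, 95% interval -0.74 to -0.06), with a limma adjusted p of 0.0678. With median-ratio scaling the differences were -0.64 in both genotypes and passed the test, with limma adjusted p = 0.0167 and 0.0222.

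Pck1 encodes the cytosolic phosphoenolpyruvate carboxykinase that commits carbon to gluconeogenesis. Its level spread widely within groups, at 549, 255, and 264 FPKM in WT control mice and 283, 715, and 382 FPKM in Cfb-/- control mice. It stood at 377, 474, 456, and 629 FPKM in WT diabetic mice and at 153, 259, 409, and 254 FPKM in Cfb-/- diabetic mice. Control and diabetic mice overlapped in both genotypes. The log2 difference between diabetic and control mice was 0.52 (SE 0.36, limma adjusted p = 0.248) in WT mice and -0.75 (SE 0.36, limma adjusted p = 0.123) in Cfb-/- mice. The latter passed the test without the third Cfb-/- diabetic mouse, at -0.98 (limma adjusted p = 0.0464).

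Khk, whose product ketohexokinase traps fructose as fructose-1-phosphate, stood at 273, 461, and 342 FPKM in WT control mice and at 184, 206, 218, and 197 FPKM in WT diabetic mice. Among Cfb-/- mice the controls had 272, 313, and 227 FPKM and the diabetic mice 168, 169, 180, and 202 FPKM. The diabetic mice were lower than the controls of their genotype without overlap. The log2 difference was -0.80 (SE 0.16, limma adjusted p = 0.00109) in WT mice and -0.58 (SE 0.16, limma adjusted p = 0.0103) in Cfb-/- mice. The call in Cfb-/- mice was lost without their second control mouse, at -0.47 (limma adjusted p = 0.0615).

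Hexokinases start glycolysis by phosphorylating glucose. Hk1, the form found in most tissues, stood at 10.6, 9.37, and 10.1 FPKM in WT control mice and at 19.9, 26.4, 21.8, and 24.9 FPKM in WT diabetic mice. Levels in Cfb-/- control mice were 13.2, 12.3, and 19.5 FPKM, and those in Cfb-/- diabetic mice were 31.0, 27.2, 20.8, and 22.0 FPKM. Diabetic mice were higher without overlap in both genotypes, although the third Cfb-/- control mouse came close to the lowest diabetic mouse. The log2 difference was 1.20 (SE 0.17, limma adjusted p = 9.94e-05) in WT mice and 0.76 (SE 0.17, limma adjusted p = 0.00327) in Cfb-/- mice.

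Hk2, the insulin-responsive hexokinase of muscle and fat, was the lowest of the 9 genes. It stood at 0.133, 0.0935, and 0.0936 FPKM in WT control mice and at 0.885, 0.699, 0.618, and 0.662 FPKM in WT diabetic mice. In Cfb-/- mice it stood at 0.210, 0.146, and 0.186 FPKM in the controls and at 1.68, 1.20, 0.405, and 0.614 FPKM in diabetic mice. The groups did not overlap in either genotype, and the Cfb-/- diabetic mice spread from 0.405 to 1.68 FPKM. The ratio of group mean FPKM was 6.71 in WT mice and 5.40 in Cfb-/- mice. On the log2(FPKM + 0.1) scale, which understates the change of so low a gene, the difference was 1.98 (SE 0.33, limma adjusted p = 0.000381) in WT mice and 1.77 (SE 0.33, limma adjusted p = 0.00101) in Cfb-/- mice. Its size followed the pseudocount, at 0.63 and 0.70 with 1 added and 2.64 and 2.18 with 0.01 added, and it passed the test each time. Hk1 RNA exceeded Hk2 RNA by 62.9 to 107 times in control mice and by 18.4 to 51.3 times in diabetic mice.

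Pfkp, the platelet-type subunit of phosphofructokinase, which sets the pace of glycolysis, stood at 5.20, 4.20, and 4.70 FPKM in WT control mice and at 17.2, 21.2, 19.0, and 17.6 FPKM in WT diabetic mice. Levels in Cfb-/- mice were 7.20, 5.43, and 11.1 FPKM in the controls and 20.5, 19.6, 18.5, and 19.3 FPKM in diabetic mice. The 8 diabetic mice lay close together and well above all controls. The log2 difference was 1.97 (SE 0.18, limma adjusted p = 4.05e-06) in WT mice and 1.35 (SE 0.18, limma adjusted p = 6.47e-05) in Cfb-/- mice.

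Pkm, the pyruvate kinase gene of most tissues other than liver, stood at 56.7, 62.5, and 62.6 FPKM in WT control mice and at 101, 127, 105, and 134 FPKM in WT diabetic mice. The Cfb-/- controls had 66.6, 61.1, and 84.6 FPKM and the Cfb-/- diabetic mice 145, 134, 99.5, and 108 FPKM. Again no diabetic mouse overlapped with a control mouse. The log2 difference was 0.93 (SE 0.15, limma adjusted p = 0.00027) in WT mice and 0.78 (SE 0.15, limma adjusted p = 0.00121) in Cfb-/- mice.

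Ldha encodes the lactate dehydrogenase subunit that favours the step from pyruvate to lactate. It stood at 304, 379, and 372 FPKM in WT control mice and at 264, 326, 305, and 320 FPKM in WT diabetic mice. In Cfb-/- mice it stood at 298, 333, and 297 FPKM in the controls and at 246, 235, 250, and 286 FPKM in diabetic mice. The WT groups overlapped and the Cfb-/- groups did not. The log2 difference was -0.21 (SE 0.12, limma adjusted p = 0.149) in WT mice, which turned to 0.10 with quantile normalization, and -0.28 (SE 0.12, limma adjusted p = 0.0726) in Cfb-/- mice. With median-ratio scaling it was -0.49 and -0.53 and passed the test, with limma adjusted p = 0.0190 and 0.0172.

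Counting groups without overlap, 7 of the 9 enzymes separated diabetic from control mice in WT mice, 4 of them higher and 3 lower, against 45.3% of all genes tested, of which 35.5% were higher and 9.84% lower. The count was also 7 in Cfb-/- mice, 4 higher and 3 lower, against 42.2% of all genes, of which 33.6% were higher and 8.64% lower. Group means of Hk1, Hk2, Pfkp, and Pkm had the same order, from WT control through Cfb-/- control and WT diabetic to Cfb-/- diabetic mice. Those of G6pc, Khk, and Ldha had the reverse order. The Cfb-/- diabetic and WT diabetic groups, neighbours in these orders, overlapped for all 7 genes, and the WT control and Cfb-/- control groups overlapped for G6pc, Khk, Ldha, and Pkm. Fbp1 was highest in WT control mice, with means of 382 and 386 FPKM in Cfb-/- control and WT diabetic mice and 297 in Cfb-/- diabetic mice.

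**Figure D2:**
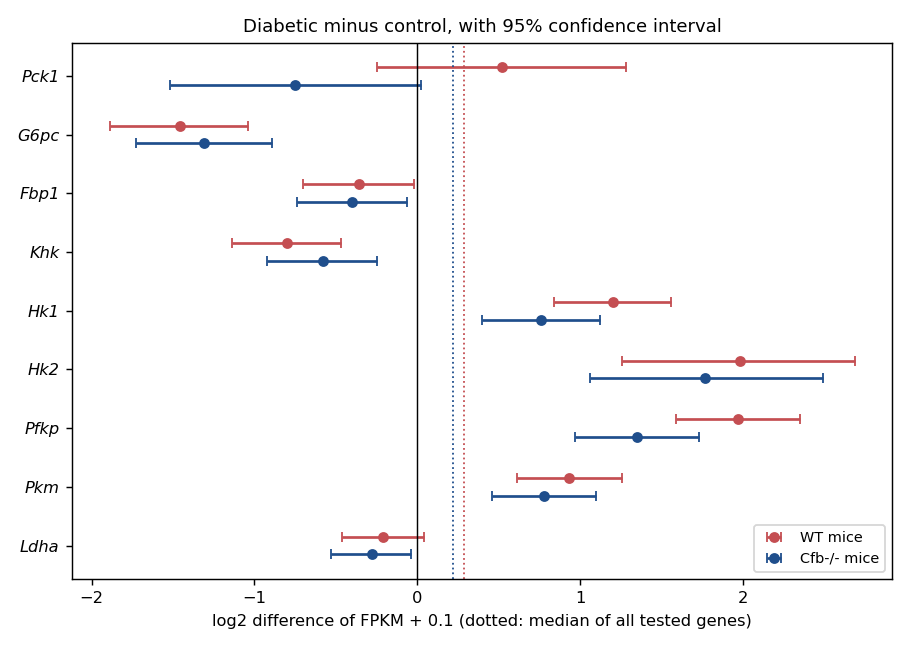
Log2 difference of FPKM + 0.1 between diabetic and control mice (x axis) for each enzyme in WT mice (red) and Cfb-/- mice (blue), with 95% confidence intervals from limma and dotted lines at the medians of all tested genes, 0.29 and 0.22. The intervals of Hk1, Hk2, Pfkp, and Pkm lie above both medians and those of G6pc and Khk below 0, while that of Pck1 in WT mice, -0.25 to 1.28, includes 0, and Ldha in WT mice turned from -0.21 to 0.10 with quantile normalization.

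Markers of cell types moved along with these enzymes. The summed level of 12 proximal tubule markers, led by Miox, was 8103 to 9684 FPKM in WT control mice, 6431 to 7276 in Cfb-/- control mice, 2851 to 3764 in WT diabetic mice, and 2223 to 3637 in Cfb-/- diabetic mice. Of the 12, 8 were lower with diabetes in WT mice and 10 in Cfb-/- mice, and none was higher. The 8 markers of injured tubule, led by Spp1, all rose in both genotypes. Their sum was 291 to 302 FPKM in WT control and 1634 to 2592 in WT diabetic mice, and 330 to 403 FPKM in Cfb-/- control and 1306 to 2496 in Cfb-/- diabetic mice. Of 10 leukocyte markers, led by Lyz2, 9 rose in WT mice and 6 in Cfb-/- mice, and their sum was 26.9 to 56.7 FPKM in control mice and 121 to 219 FPKM in diabetic mice. All 6 fibroblast and pericyte markers, led by Dcn, rose in both genotypes. Of 8 markers of thick ascending limb and distal tubule, led by Umod, 3 rose in each genotype, near the 36.2% and 27.4% of all genes that were higher. Their sum was 795 to 1183 FPKM in WT control and 1343 to 1721 in WT diabetic mice, without overlap. In Cfb-/- mice it was 943 to 2189 FPKM in the controls and 1676 to 1794 in diabetic mice, with overlap. The part of all these markers in the differences of the enzymes was not tested. In RNA of whole tissue, fewer cells of a type and less RNA per cell cannot be told apart.

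Other marker lists moved less uniformly. The counts of these and the preceding lists stand beside the shares of all genes tested. Those were 36.2% higher and 9.97% lower in WT mice, and 27.4% higher and 6.4% lower in Cfb-/- mice. Of 6 endothelial markers, led by Plvap, 4 rose in WT mice and 5 in Cfb-/- mice. Collecting duct markers, led by Aqp2, gave 2 higher and 1 lower of 8 in WT mice and 0 in Cfb-/- mice. All 7 urothelial markers, led by Upk1a, and all 5 tested adipocyte markers, led by Cfd, rose in WT mice, and 0 of either list passed in Cfb-/- mice. Urothelial sums were 0.279 to 0.777 FPKM in WT control and 0.721 to 51.1 in WT diabetic mice. The first WT diabetic mouse, at 0.721, lay within the WT control range. Urothelial sums were 0.636 to 10.3 FPKM in Cfb-/- control and 1.30 to 3.58 in Cfb-/- diabetic mice. Adipocyte sums were 0 to 0.145 FPKM in WT control and 7.11 to 31.1 in WT diabetic mice. They were 0 to 9.57 FPKM in Cfb-/- control and 0.102 to 0.386 in Cfb-/- diabetic mice. Erythrocyte markers, led by Hbb-bs, gave 2 lower of 5 in WT mice and 4 in Cfb-/- mice. Of 2 tested muscle markers, whose list is led by Mylpf, 1 rose in each genotype. Adrenal markers summed to at most 0.406 FPKM, with Star as the highest and Cyp11b2 and Th at 0 in every mouse.

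Within the Cfb-/- groups, the same mice stood apart for markers and enzymes, whereas the WT groups were mixed. Among Cfb-/- diabetic mice, the first and second had the lowest proximal tubule sums, 2223 and 2274 FPKM against 3602 and 3637 in the other two. These 2 mice also had the lowest Fbp1 and Khk and the highest Hk1, Hk2, Pkm, and Pfkp of the group. Among Cfb-/- control mice, the third had the lowest proximal tubule sum, 6431 FPKM, and the highest thick limb and distal sum, 2189 FPKM against 943 and 1325. It also had the lowest Fbp1 and Khk and the highest Hk1, Pfkp, and Pkm of its group, but its G6pc was the highest as well, at 221 FPKM against 187 and 196. Among WT diabetic mice, the fourth had the lowest sum, 2851 FPKM, the lowest Fbp1, and the highest Pkm. The second had the highest sum, 3764 FPKM, but also the highest Hk1 and Pfkp, at 26.4 and 21.2 FPKM. Its collecting duct marker sum was 597 FPKM against 253 to 396 in the rest of the group, and the part of this was not tested. Among WT control mice, the first had the lowest sum, 8103 FPKM, the lowest Fbp1 and Khk, and the highest Hk1, Hk2, and Pfkp. Its Pkm was the lowest, at 56.7 FPKM.

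Ratios of enzyme RNAs within a mouse do not change when all values of the mouse are multiplied by the same factor, as in median-ratio scaling, but they do change with quantile normalization, which was not applied to these ratios. G6pc over Hk1 was 19.8 to 30.3 in WT control mice, 11.3 to 15.9 in Cfb-/- control mice, 2.85 to 4.67 in WT diabetic mice, and 2.28 to 4.56 in Cfb-/- diabetic mice. Fbp1 over Pfkp was 88.6 to 120, 33.0 to 70.0, 18.7 to 21.8, and 10.8 to 20.6 in the same order, and Khk over Hk1 was 25.7 to 49.2, 11.6 to 25.4, 7.80 to 10.0, and 5.42 to 9.20. In these 3 ratios every diabetic mouse was below every control mouse, and Cfb-/- control mice were below WT control mice. Pck1 over Pkm was 4.07 to 9.69, 4.25 to 11.7, 3.74 to 4.69, and 1.05 to 4.11. In this ratio WT control and WT diabetic mice overlapped, while Cfb-/- diabetic mice lay narrowly below Cfb-/- control mice. Ldha over Pkm was 5.35 to 6.07 in WT control and 2.38 to 2.92 in WT diabetic mice, and 3.51 to 5.46 in Cfb-/- control and 1.69 to 2.64 in Cfb-/- diabetic mice. The ratios are given without a test.

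**Figure D3:**
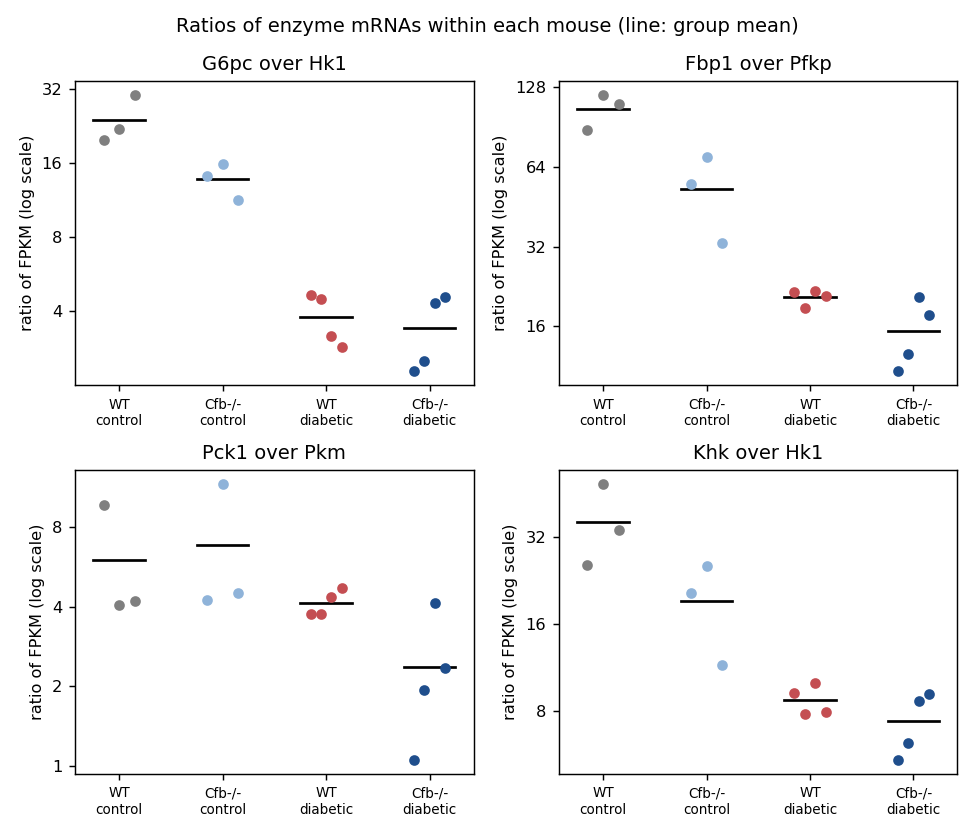
Ratio of FPKM of a gluconeogenic or fructose enzyme to a glycolytic enzyme (y axis, log scale) in each mouse, with a line at the group mean, for 3 WT control, 3 Cfb-/- control, 4 WT diabetic, and 4 Cfb-/- diabetic mice. The ratio of G6pc to Hk1 is 19.8 to 30.3 in WT control mice and 2.85 to 4.67 in WT diabetic mice. Pck1 over Pkm overlaps between these groups but not between the Cfb-/- groups, where it is 4.25 to 11.7 in control and 1.05 to 4.11 in diabetic mice.

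The surrounding pathways were followed in 5 lists of 55 other genes, 54 of which were tested. In diabetic mice 19 of them were higher and 9 lower in WT mice, and 14 were higher and 8 lower in Cfb-/- mice (limma, adjusted p under 0.05), with list medians of 0.10 and 0.15 (log2) beside 0.29 and 0.22 for all genes. Of all genes tested, 36.2% were higher and 9.97% lower in WT mice and 27.4% were higher and 6.4% lower in Cfb-/- mice, which are the shares to set beside the counts of each list. With median-ratio scaling the split was 10 higher and 19 lower in WT mice and 10 higher and 16 lower in Cfb-/- mice.

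Of 8 other gluconeogenic genes, 2 rose and 4 fell in WT mice and 2 rose and 2 fell in Cfb-/- mice. Values are means ± SD of 3 control and 4 diabetic mice. Pcx, the mitochondrial pyruvate carboxylase that feeds the pathway, fell from 129 ± 9.90 FPKM to 79.2 ± 4.85 in WT mice and from 113 ± 10.6 to 62.5 ± 20.5 in Cfb-/- mice, with log2 differences of -0.70 and -0.91 (limma adjusted p = 0.00836 and 0.00199). The first call was lost with quantile normalization, at -0.52. Slc37a4, which carries glucose-6-phosphate to G6PC in the endoplasmic reticulum, fell by 0.67 and by 0.66 on the log2 scale (limma adjusted p = 0.0022 and 0.00299). Pck2, the mitochondrial counterpart of Pck1, was low, at 4.07 ± 0.382 FPKM in WT control mice, and rose by 0.55 and 0.61 (limma adjusted p = 0.00253 and 0.00149), a call that quantile normalization removed in both genotypes and median-ratio scaling in WT mice, at 0.27 (limma adjusted p = 0.0624). Fbp2, the muscle form of fructose-1,6-bisphosphatase, rose by 0.49 and 1.01 (limma adjusted p = 0.00418 and 2.69e-05), the former without a call under median-ratio scaling. The most abundant of the list, Mdh1, did not pass the test, at -0.21 in WT mice, which turned to 0.13 with quantile normalization, and -0.27 in Cfb-/- mice. With median-ratio scaling it passed as lower in both genotypes, at -0.49 and -0.51 (limma adjusted p = 0.0204 and 0.0209).

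The glycolysis list, which also holds lactate dehydrogenases, had 18 other genes tested. Of these, 6 rose and 1 fell in WT mice and 4 rose and 1 fell in Cfb-/- mice. Ldhd was the gene that fell in both genotypes. Aldoc, the brain form of aldolase, rose from 1.45 ± 0.510 to 7.53 ± 4.10 FPKM in WT mice, a log2 difference of 2.18 (limma adjusted p = 0.0026). In Cfb-/- mice its difference was 0.89 (limma adjusted p = 0.176), and without the third Cfb-/- control mouse it passed at 1.46 (limma adjusted p = 0.0298). Hk3, a hexokinase of blood cells, rose by 1.31 and 1.45 (limma adjusted p = 0.000556 and 0.000319), and Eno2, the neuronal enolase, by 1.30 and 1.80 (limma adjusted p = 0.0145 and 0.00252), and both were at means of 0.138 to 0.218 FPKM in the control groups. In WT mice both calls were lost with quantile normalization, and that of Eno2 also without the second WT control mouse, at 1.09 (limma adjusted p = 0.0753). Ldhd, a mitochondrial dehydrogenase of D-lactate, fell from 458 ± 16.8 to 191 ± 31.6 FPKM in WT mice and from 472 ± 69.8 to 183 ± 42.2 in Cfb-/- mice, with differences of -1.28 and -1.39 (limma adjusted p = 8.29e-05 and 5.1e-05). Ldhb, the most abundant of the list and the subunit that favours the step from lactate to pyruvate, did not pass, at -0.24 in WT and 0.04 in Cfb-/- mice. In WT mice it passed as lower with median-ratio scaling, at -0.52 (limma adjusted p = 0.0216), and without the first WT control mouse, at -0.37 (limma adjusted p = 0.032), but turned to 0.14 with quantile normalization. In Cfb-/- mice it turned to -0.21 with median-ratio scaling.

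Of 4 other genes of fructose and polyol handling, 1 fell and none rose in either genotype. This was Glyctk, a glycerate kinase, which fell by 1.05 and by 1.02 on the log2 scale (limma adjusted p = 0.000233 and 0.000319). Sord, the sorbitol dehydrogenase that makes fructose in the polyol pathway and the most abundant of these 4 genes, stood at 711 ± 94.8 FPKM in WT control and 572 ± 105 in WT diabetic mice, and at 667 ± 45.4 and 509 ± 118 FPKM in Cfb-/- mice. Its log2 differences of -0.32 and -0.42 did not pass the test (limma adjusted p = 0.168 and 0.1). They passed with median-ratio scaling, at -0.61 and -0.66, and in Cfb-/- mice without the fourth diabetic mouse, at -0.53 (limma adjusted p = 0.0468), and the value in WT mice turned to 0.08 with quantile normalization.

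Of 12 genes that direct pyruvate or set fructose-2,6-bisphosphate, 6 rose and 2 fell in WT mice and 5 rose and 3 fell in Cfb-/- mice. Pdk4, a kinase that shuts off pyruvate dehydrogenase, rose from 4.04 ± 0.247 to 22.9 ± 3.35 FPKM in WT mice and from 8.16 ± 3.56 to 16.9 ± 3.59 in Cfb-/- mice, with log2 differences of 2.46 and 1.12 (limma adjusted p = 1.13e-05 and 0.00368). Pdk1, another such kinase, rose by 1.01 and 0.67 (limma adjusted p = 0.000949 and 0.0147). In WT mice Pdk2, the most abundant such kinase, fell from 72.7 ± 2.11 to 51.1 ± 0.872 FPKM. In Cfb-/- mice Pdk2 fell from 60.6 ± 8.05 to 49.1 ± 6.01 FPKM. Its log2 differences were -0.51 and -0.30 (limma adjusted p = 0.00149 and 0.0368). Pdk3, also such a kinase, fell in Cfb-/- mice, at -0.49 (limma adjusted p = 0.0289). It did not pass in WT mice, at -0.20 (limma adjusted p = 0.321). Pfkfb3, which makes the activator fructose-2,6-bisphosphate, rose by 1.15 and 0.78 (limma adjusted p = 0.000339 and 0.00582). Pdp1, a phosphatase that reactivates pyruvate dehydrogenase, rose by 1.14 and 0.61 (limma adjusted p = 0.000443 and 0.0287). Pdp2, another such phosphatase, fell in both genotypes, at -0.80 and -0.58 (limma adjusted p = 0.00255 and 0.0207). The calls in Cfb-/- mice of Pdk1, Pfkfb3, and Pdp1 were lost with quantile normalization and, for Pdk1 and Pdp1, without the second Cfb-/- control mouse, at 0.49 and 0.32. That of Pdp1 was also lost with median-ratio scaling, at 0.38, with the compared groups alone, and without the first or second Cfb-/- diabetic mouse (limma adjusted p = 0.113, 0.0699, 0.0777, and 0.0552). Pdha1, the most abundant of these genes and a subunit of pyruvate dehydrogenase, did not pass, at 0.12 in WT mice, which became -0.16 with median-ratio scaling, and -0.25 in Cfb-/- mice, which became -0.49 with that scaling and passed (limma adjusted p = 0.0178).

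Of 12 transcription factors of glucose metabolism, 5 rose and 1 fell in WT mice and 3 rose and 1 fell in Cfb-/- mice. Hnf4a, a regulator of proximal tubule genes and the most abundant of the list, fell from 177 ± 20.7 to 106 ± 16.2 FPKM in WT mice and from 169 ± 13.4 to 99.1 ± 20.8 in Cfb-/- mice (log2 differences -0.75 and -0.79, limma adjusted p = 0.00206 and 0.00175). Myc rose by 1.12 and 1.35 (limma adjusted p = 0.00673 and 0.00252) and Cebpb by 0.56 and 0.79 (limma adjusted p = 0.0165 and 0.00288). In WT mice Myc lost its call with quantile normalization. Cebpb lost its call in WT mice with median-ratio scaling, at 0.28, and without the first or the second WT control mouse, at 0.48 and 0.49 (limma adjusted p = 0.192, 0.0555, and 0.0732). Hif1a, the hypoxia-inducible factor that drives glycolytic genes, rose by 1.26 (limma adjusted p = 0.000545) in WT mice, and its difference was 0.57 (limma adjusted p = 0.063) in Cfb-/- mice. The latter passed with the compared groups alone (limma adjusted p = 0.0339) and without the second Cfb-/- diabetic mouse, at 0.68 (limma adjusted p = 0.045).

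**Figure D4:**
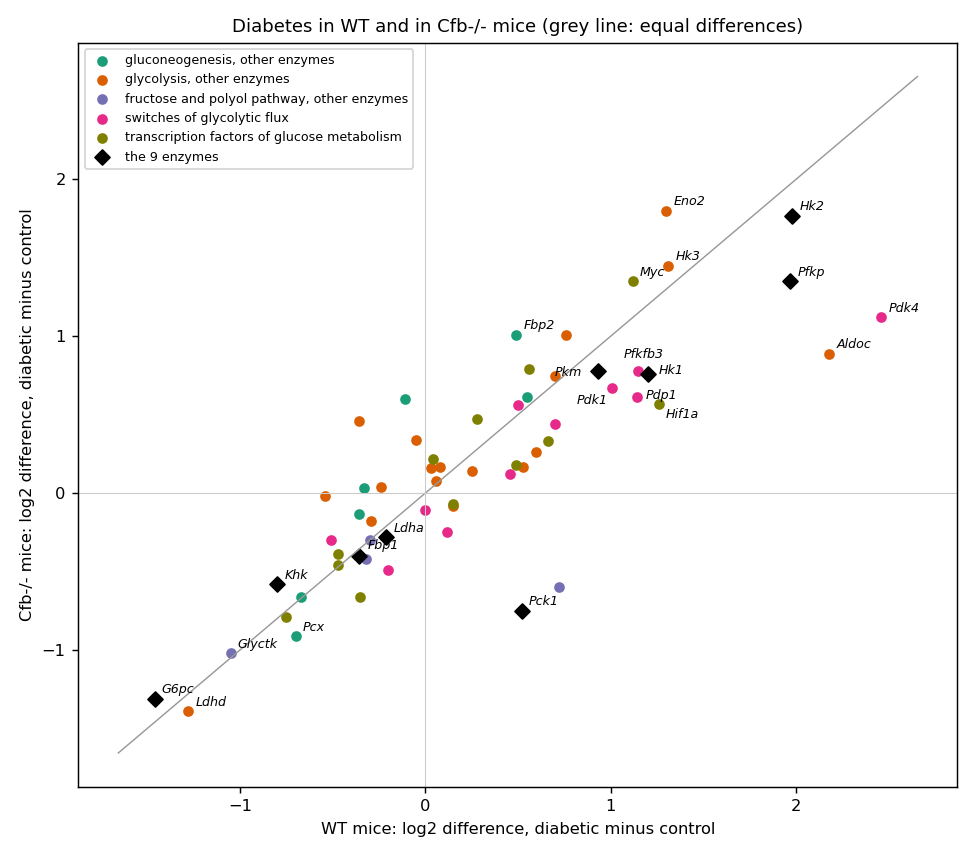
Log2 difference between diabetic and control mice in WT mice (x axis) against that in Cfb-/- mice (y axis) for the 9 enzymes (black diamonds) and the 54 tested genes of 5 pathway lists (colours), with a grey line where both are equal. Ldhd, G6pc, and Glyctk lie lowest on both axes, Hk2 and Pfkp are high on both, and Pck1 lies at 0.52 in WT mice and -0.75 in Cfb-/- mice, neither past the test.

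Between Cfb-/- and WT mice, 0 of the 9 enzymes were called in control mice and 0 in diabetic mice (limma), against 0.00671% of all genes in each comparison, which is Cfb alone. At an unadjusted p under 0.05, 2614 genes passed in control mice and 448 in diabetic mice. In control mice, 4 of the 9 enzymes did not overlap between genotypes, Hk1, Hk2, and Pfkp higher and Fbp1 lower in Cfb-/- mice, against 13.8% of all genes, of which 6.67% were higher and 7.12% lower. Pfkp differed by 0.68 on the log2 scale (95% interval 0.28 to 1.09, limma adjusted p = 0.239) and Hk1 by 0.55 (95% interval 0.16 to 0.94, limma adjusted p = 0.247). Khk differed by -0.38 (95% interval -0.74 to -0.02, limma adjusted p = 0.27), and Fbp1 by -0.38 (95% interval -0.74 to -0.01, limma adjusted p = 0.279). For Pck1, G6pc, Hk2, Pkm, and Ldha the differences of 0.36, -0.23, 0.44, 0.21, and -0.18 had intervals that include 0. That of Ldha became 0.07 with quantile normalization.

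The count in control mice depended on a single WT mouse. Without the first WT control mouse, Pfkp passed at 0.76 (limma adjusted p = 0.0394) and Khk at -0.56 (limma adjusted p = 0.0375), but 1711 genes of all kinds were then called in place of 1, and 6 of the pathway genes. The summed proximal tubule markers of Cfb-/- control mice were 6431 to 7276 FPKM against 8103 to 9684 in WT control mice, and none of the 12 markers was called. Their part in the differences was not tested.

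In diabetic mice no enzyme separated the genotypes without overlap, against 2.75% of all genes, of which 1.86% were higher and 0.885% lower. The log2 difference of Pck1 between Cfb-/- and WT diabetic mice was -0.91 (95% interval -1.62 to -0.20), that of Fbp1 -0.41 (95% interval -0.73 to -0.10), and that of Ldha -0.25 (95% interval -0.48 to -0.03), each with a limma adjusted p of 1. The other 6 had intervals that include 0. Pfkp and Pkm both differed by 0.06, with intervals of -0.29 to 0.41 and -0.24 to 0.35. The interval of G6pc was -0.47 to 0.31 and that of Hk1 was -0.23 to 0.44. Hk2, the least precise of these, had an interval of -0.42 to 0.90.

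**Figure D5:**
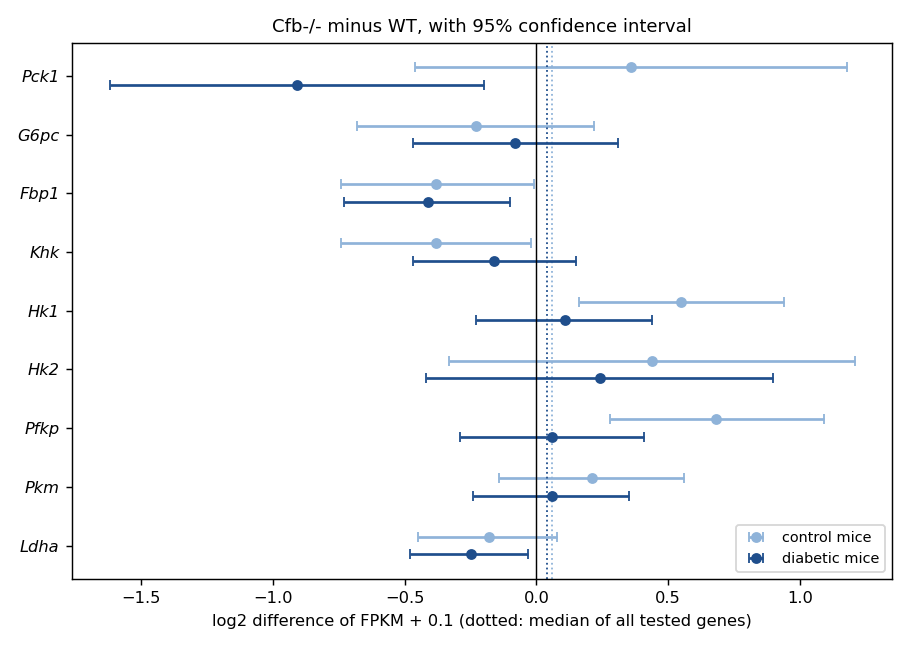
Log2 difference of FPKM + 0.1 between Cfb-/- and WT mice (x axis) for each enzyme in control mice (light blue) and diabetic mice (dark blue), with 95% confidence intervals from limma that are not adjusted for the number of genes. In control mice the intervals of Pfkp, 0.28 to 1.09, and Hk1, 0.16 to 0.94, lie above 0 and in diabetic mice that of Pck1, -1.62 to -0.20, lies below 0, but no enzyme passed the test over all genes.

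Whether diabetes changed the enzymes differently in the genotypes was tested by the interaction in limma. Of the 9 enzymes 0 were called, against 0% of all genes, with 861 at an unadjusted p under 0.05. Pck1 had an interaction of -1.27 (SE 0.51, unadjusted p = 0.0253, limma adjusted p = 0.779). Pfkp had an interaction of -0.63 (SE 0.25, unadjusted p = 0.0252, limma adjusted p = 0.779). Its means were 4.70 ± 0.498 FPKM in WT control mice and 7.92 ± 2.92 in Cfb-/- control mice (SD, n = 3), and 18.7 ± 1.79 and 19.5 ± 0.828 in WT and Cfb-/- diabetic mice (SD, n = 4). For G6pc the interaction had a 95% interval of -0.44 to 0.75, and for Hk2 one of -1.21 to 0.81.

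Across the 14 mice, the log2 levels of other genes were compared with those of each enzyme, as a description in which the difference between diabetic and control mice takes part. The genes closest to G6pc were Arhgap10 (r = 0.971) and Def8 (r = 0.966), and those closest to Khk were Ttc36 and Proc (r = 0.988 for both). Fbp1 was closest to Cryl1 (r = 0.970, and 0.995 over the 8 diabetic mice alone) and Sqrdl (r = 0.948). For Hk1 they were Ctnnal1 (r = 0.985) and Pik3r3 (r = 0.980), for Hk2 F3 (r = 0.989), which encodes tissue factor, and Itga3 (r = 0.980), and for Pkm St14 (r = 0.993) and Tmem38a (r = 0.989). Pfkp was closest to Myof (r = 0.991) and Zdhhc13 (r = 0.985), but over the 8 diabetic mice these stood at 0.673 and 0.289. Ldha was closest to Atp5f1 (r = 0.944), a subunit of ATP synthase, and Lyrm4 (r = 0.934). Pck1 had no close match, with Ccl28 (r = 0.721) and Cdr2 (r = 0.701) as the nearest.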

How the data were processed

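RNA was sequenced from the kidneys of 14 mice. Libraries were made with a stranded mRNA kit and read from both ends. Per the labels, the submitters' processing notes name Trimmomatic, HISAT2, Cufflinks, HTSeq, DESeq, and build GRCm38.p6, with no versions. The deposited tables hold the FPKM of each gene in a mouse as the authors made them. No label names this unit. It was inferred from fractional values without a fixed sum and from the tools named. FPKM divides by the total of a library, so a drop of an abundant transcript raises all others. Read counts were not used here, and the tests of DESeq2 and edgeR, which need them, were not run.

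Members and gene lists were chosen with earlier results of these data known. A gene of the pathway lists is not reported here, and its list was counted without it. The rule for named genes took the 9 enzymes, of each pathway list the 3 called genes with the largest difference in each genotype and the most abundant gene, of each marker list the most abundant gene and those at 0 throughout, and for each enzyme the 2 genes with the highest Pearson correlation among those with a mean of at least 1 FPKM. The ratios of enzymes and the scaling with Kap left out were chosen after seeing the data, as was repeating the alternatives for the pathway lists and their named genes. Pdk2, Pdk3, and Pdp2 were named outside the rule, after their values were seen, and were not followed singly under the alternatives.

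The analysis of log2(FPKM + 0.1) used limma 3.58.1 (R 4.3.3), whose empirical Bayes step followed the mean-variance trend. The 4 group means were fitted to all 14 mice at once, without rescaling the deposited values. Genes with at least 0.1 FPKM in at least 3 mice were tested, 14912 in all, and p-values were adjusted by Benjamini-Hochberg over all of them. A gene was called at an adjusted p under 0.05. SDs give the spread between the mice of a group. The p-values set a difference against 1 estimate of the spread between mice, shared by the 4 groups and moderated by the empirical Bayes step. The fit was tested on simulated data. Alternatives were pseudocounts of 1 and 0.01, no filter, a filter of 1 FPKM, median-ratio scaling, quantile normalization, no trend, a fit of the compared groups alone, a block for replicate number, and fits with 1 mouse omitted. Relative depth was the most frequent ratio of values under 0.1 FPKM between mice. Figures were drawn in Python 3.11.15 with matplotlib 3.10.9.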

Additional observations from a re-analysis of the deposited data

Results flagged for a closer look

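Pck1 was the only 1 of the 9 enzymes whose diabetic mice lay on opposite sides of their control mean in the genotypes. All 4 WT diabetic mice were above the mean of the WT control mice and all 4 Cfb-/- diabetic mice were below the mean of the Cfb-/- control mice. The difference between the genotypes was -1.27 on the log2 scale (SE 0.51, unadjusted p = 0.0253, limma adjusted p = 0.779), and fits that each omitted 1 mouse gave -1.63 to -0.89. It did not pass the correction over all genes, and both control groups spread widely, from 255 to 549 FPKM and from 283 to 715 FPKM. The first and second Cfb-/- diabetic mice, at 153 and 259 FPKM, had the lowest proximal tubule sums of all mice, 2223 and 2274 FPKM, whose part in the result was not tested. The fourth Cfb-/- diabetic mouse had 254 FPKM of Pck1 with the highest such sum of its group, 3637 FPKM, and the fourth WT diabetic mouse had the highest Pck1 of the WT diabetic mice, 629 FPKM, with their lowest sum, 2851 FPKM.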

How the results depend on the processing

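The counts of called enzymes stayed within 1.5 times of the reported ones with each alternative, except in control mice. There 0 to 2 enzymes and 0 to 6 pathway genes were called between genotypes when each mouse was left out, with 2 and 6 without the first WT control mouse and 1 pathway gene without the second Cfb-/- control mouse. The pathway genes called with diabetes in Cfb-/- mice ranged from 15 to 25, lowest without the first Cfb-/- diabetic mouse, and all genes called between genotypes in control mice went from 1 to 1711 without the first WT control mouse.

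Signs changed for small differences. With quantile normalization Ldha became 0.10, Mdh1 0.13, Ldhb 0.14, and Sord 0.08 with diabetes in WT mice, and Ldha became 0.07 between genotypes in control mice. With median-ratio scaling Pdha1 became -0.16 in WT mice, Ldhb -0.21 in Cfb-/- mice, and the interaction of Fbp1 became 0.00, and with a pseudocount of 1 the interaction of Hk2 became 0.07. When each mouse was left out, the interaction ranged from -0.17 to 0.09 for Fbp1, -0.03 to 0.31 for G6pc, -0.50 to 0.10 for Hk2, and -0.14 to 0.03 for Ldha. Between genotypes in diabetic mice the range was -0.18 to 0.08 for G6pc, -0.06 to 0.54 for Hk2, and -0.03 to 0.15 for Pkm, and in control mice it was -0.02 to 0.72 for Pck1. With diabetes it was -0.03 to 0.08 for Ldhb in Cfb-/- mice and -0.01 to 0.25 for Pdha1 in WT mice. The cause of these changes was not tested.

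Hk2 was not tested with the filter of 1 FPKM, so 5 enzymes were called there in each genotype. Fbp1 also passed in WT mice with the compared groups alone (limma adjusted p = 0.0436), and in Cfb-/- mice without diabetic mouse 3 or 4. Ldha also passed in WT mice without the first control mouse and in Cfb-/- mice without diabetic mouse 4.

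Replicate numbers are shared between groups, but nothing says that they pair mice. In deviations of log2 levels from the group mean, 3 of 19 same-numbered pairs correlated above 0.1 (-0.388 to 0.243). With the replicate block, 6 and 7 enzymes were called with diabetes in WT and Cfb-/- mice and 0 elsewhere. The addition was Ldha in Cfb-/- mice, at -0.33 (limma adjusted p = 0.0395). Of the pathway genes 27 and 17 were called.

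FPKM carries no read counts, and no counting error is given. Hk2 in control mice lay near the 0.1 that was added. With 3 or 4 mice per group, the intervals between genotypes were wide, and a p that missed the threshold does not show equal levels.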

Other observations

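Gapdh, looked at after its values were seen, was listed at 1.55 to 4.32 FPKM across the 14 mice, far below its neighbours in glycolysis, since Aldoa stood at a mean of 304 FPKM and Pgk1 at 230 FPKM in WT control mice. Gapdh has many near-identical pseudogene copies, so its values are uncertain, and no gene was scaled to it.

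Akr1b3, the aldose reductase that starts the polyol pathway, spread most among the fructose and polyol genes and was likewise chosen after its values were seen. It stood at 61.0 ± 46.0 FPKM in WT diabetic mice (SD, n = 4) against 24.5 ± 2.08 in Cfb-/- diabetic mice (SD, n = 4), and at 29.9 ± 5.36 and 39.2 ± 14.4 in WT and Cfb-/- control mice (SD, n = 3). Its log2 differences with diabetes, 0.72 and -0.60, did not pass the test (limma adjusted p = 0.196 and 0.319), and neither did the difference between Cfb-/- and WT diabetic mice, -0.99 (95% interval -1.88 to -0.11, limma adjusted p = 1). WT diabetic mice 2 and 3 had 122 and 71.4 FPKM of Akr1b3, against 23.1 and 27.9 in the other two. These 2 mice also had the highest urothelial marker sums, 36.9 and 51.1 FPKM, and the highest Aqp2, the water channel of the collecting duct, at 469 and 292 FPKM, whose part in the values was not tested.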
